A study of Mus musculus with 10 samples.

Results

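The EGR and NR4A transcription factors and their NAB corepressors were followed in the left ventricle of mice after transverse aortic banding (TAB), an operation that narrows the aorta and loads the left ventricle with pressure. The 8 members, Egr1, Egr2, Egr3, Nr4a1, Nr4a2, Nr4a3, Nab1 and Nab2, were chosen by gene symbol among the 19942 genes named on the array, where they have 12 of 26423 probes. The animals were male C57BL/6J mice, 8 weeks old and weighing 20 to 25 g, and each had either TAB or a sham operation. Left ventricle RNA was taken 3, 5, 7, 14 or 28 days later, with 1 TAB and 1 sham sample per day, which makes 10 samples on 10 arrays. The labels state no transgene or drug, and how many mice a sample held is not given in the sources used here. A difference on 1 day therefore has no replicate check and gets no p-value, and the 5 days stand in as replicates when an average TAB effect is tested. For the TAB sample used as day 14, 1 of several labels says 15 days and the others say 14.

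EGR proteins are zinc finger transcription factors and NR4A proteins are orphan nuclear receptors. Both families belong to the immediate-early genes, whose transcripts rise within minutes to hours of a growth, stretch or stress signal and fall again soon after. NAB1 and NAB2 bind EGR proteins and repress their activity, and NAB2 is itself induced by EGR factors, so they act as a brake on the family. In the heart, EGR1 is known as an early marker of hypertrophic stimulation.

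Median raw intensity was 34 to 57 per array, and 40.3% to 47.3% of spots on an array carried a negative flag, read here as a spot that the scanner software did not find. Values below are normalized intensities, which are comparable between samples for 1 probe and not between probes, and a series of 5 values always runs from day 3 through days 5, 7 and 14 to day 28. A probe with too low a signal in any sample was removed, and 16113 genes were kept. All 8 cardiomyocyte markers, among them Myh6, Tnnt2 and Myl2, were found on all 10 arrays, so the labelled tissue had its defining transcripts. The sham array of day 14 stood apart in several members and results that rest on it are also given without it.

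Of the 12 member probes, 9 passed the filter on low values, and they stand for 7 of the 8 genes. Both Nr4a3 probes were removed, with raw intensities from -3 to 8 and a spot found on no array. The probes of Egr1, Nr4a1 and Nr4a2, and 1 of the 2 Nab1 probes, were found on all 10 arrays. A detection p-value below 0.05 on every array was given only for Egr1, Nr4a1 and that Nab1 probe, so the other members were dim.

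Egr1, the family member used most often as a marker of acute hypertrophic signalling, was high in both operations. In TAB its normalized intensity was 2386, 2055, 2514, 1222 and 982. In sham it was 2242, 648, 2064, 10481 and 705. The highest and the lowest of the 10 values were therefore both sham samples, and the TAB values lay inside the sham range. Within sham the values spanned 16.2-fold and within TAB 2.56-fold. The sham value of day 14 was 4.68 times the next highest sham value.

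The log2 ratio of TAB over sham for Egr1 was 0.09, 1.66, 0.28, -3.10 and 0.48. A gene was called on a day when its log2 ratio lay more than 2 SDs of all genes from 0, which on day 14 called 5.67% of the 16113 genes, and Egr1 passed this threshold on that day only, 8.58-fold lower in TAB. With 50 added to each intensity, or with only probes found on all 10 arrays, Egr1 was also called on day 5, higher in TAB (log2 ratio 1.59 and 1.67). With the median of the other 4 sham samples as the reference, a choice made after seeing the data, the day 14 log2 ratio was 0.02. The average log2 effect over the 5 days was -0.12 (SE 0.65, n = 5 days, limma adjusted p = 0.918), and it was 0.62 (adjusted p = 0.212) without the samples of day 14. The early days 3, 5 and 7 had a mean log2 ratio of 0.68 and the later days 14 and 28 one of -1.31, a difference of 1.99 that did not pass the test (limma adjusted p = 0.539). It was 0.21 without the samples of day 14, and 0.04 without the block and without the sham sample of that day.

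**Figure D1:**
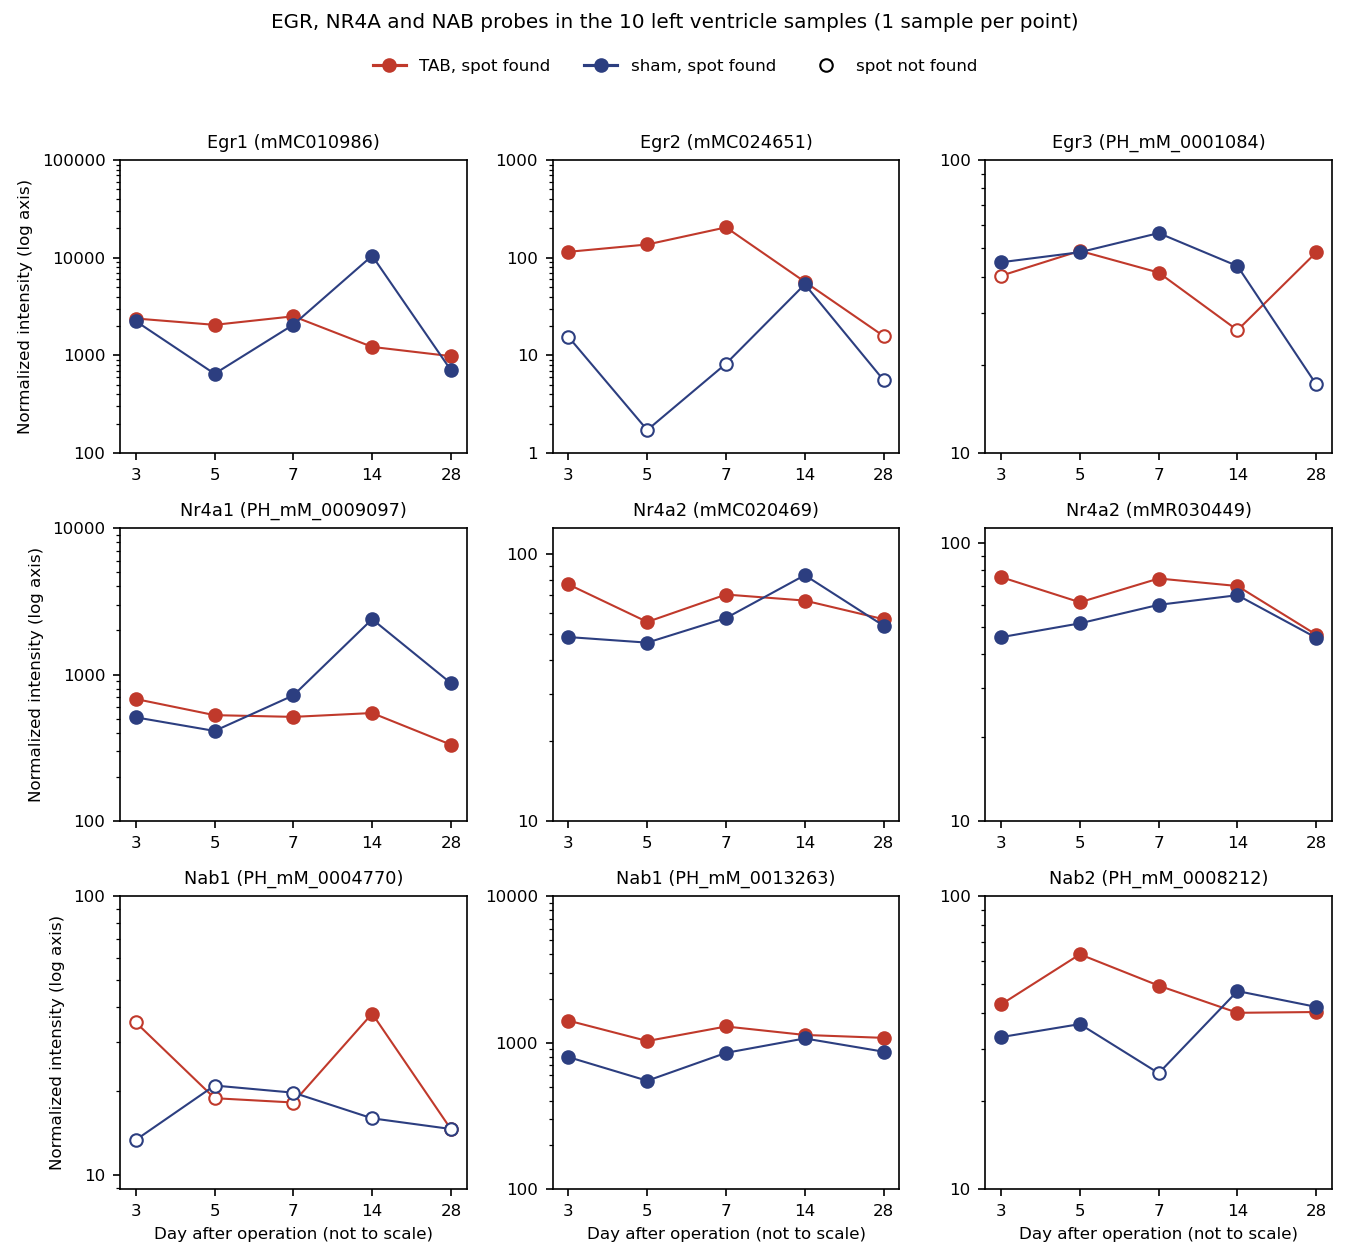
Normalized intensity (log axis) of the 9 kept member probes against day after operation, with 1 sample per point, TAB in red and sham in blue, and open points for spots not found. Egr1 reaches 10481 and Nr4a1 2390 in the sham sample of day 14, and Egr2 is found in TAB on days 3 to 14 but in sham on day 14 only.

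Egr2, known best for its part in myelination, hindbrain patterning and macrophage and lymphocyte biology, was the member with the largest excess in TAB. Its normalized intensity in TAB was 115, 137, 205, 56.7 and 15.8. The sham values were 15.5, 1.72, 8.22, 53.4 and 5.58. The spot was found on the first 4 TAB arrays and on the sham array of day 14 alone. The 3 early TAB samples were above every sham sample, the TAB and sham samples of day 14 were about level, and the 2 groups overlapped through day 28.

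Because Egr2 was not found in sham on the early days, its folds there are lower bounds. TAB was at least 7.43-fold higher on day 3, at least 20.6-fold on day 5 and at least 14.4-fold on day 7, each bound set against the higher of the sham spot itself and the dimmest spot found on that array. Egr2 was called on days 3, 5 and 7, where 5.21%, 5.52% and 5.66% of all genes were called. On day 14 the log2 ratio was 0.09. Against the median of the other 4 sham samples, in which the spot was not found, TAB was past the threshold on day 14 as well, as it was against all 5. On day 28 the log2 ratio of 1.50 passed the threshold, where 5.88% of all genes did, but the spot was found on neither array and no fold is given. That call was lost with 50 added, with probes below 1 set to 1, and against the median of all 5 sham samples. No detection p-value of Egr2 was below 0.305.

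The log2 ratio of Egr2 was positive on 5 of 5 days, though on day 28 the spot was found on neither array. The average log2 effect for Egr2 was 3.09 (SE 0.89), the highest of the 7 genes. It missed the threshold with day as a block (limma adjusted p = 0.062) and passed it without the block (adjusted p = 0.038, with 3598 genes called in place of 2749). It also passed with 50 added to each intensity (log2 effect 1.12, adjusted p = 0.036). These fits include intensities of spots that were not found, so the fitted size is not exact. Egr2 had a mean log2 ratio of 4.61 on the early days and 0.79 on the later days, and the difference of 3.82 (SE 1.08) did not pass (limma adjusted p = 0.408). Without the block and without the sham sample of day 14 the difference was 2.19.

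The promoter table of RefSeq on GRCm38.p6 gives 5 overlapping or neighbouring windows for Egr2, each from 250 bases before to 50 after a transcription start. They hold 2 CArG boxes, the element bound by serum response factor (SRF), which is known to drive immediate-early transcription, and 1.63% of all 32851 windows hold at least 1. These sites are shown because Egr2 had the highest average ratio among the members. Both strands were searched, the CArG box is in capitals, and in the second stretch the cyclic AMP response element core TGACG, read on the other strand as CGTCA, is in capitals too. The motifs do not overlap.
Egr2 (chr10:67537490-67537519, plus strand): ttctCCTTTTTTGGaaagtctcggagaacc
Egr2 (chr10:67537793-67537822, plus strand): cagtCCATATATGGgcagcgaCGTCAcggg

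Egr3, which recognises the same DNA site as EGR1 and EGR2, was dim throughout. In TAB its normalized intensity was 40.3, 49.0, 41.3, 26.3 and 48.4, and the spots of days 3 and 14 were not found. In sham it was 44.8, 48.5, 56.4, 43.5 and 17.2, and the spot of day 28 was not found. The groups overlapped, with the lowest value in the sham sample of day 28. Egr3 was called on day 28, 2.82-fold higher in TAB against a sham spot that was not found, so this fold is uncertain. The call was lost with median scaling (log2 ratio 1.24), with 50 added (0.55) and with probes below 1 set to 1 (1.50, against a wider threshold), and with the median of the 4 sham samples other than day 14 as the reference the log2 ratio of that day was 0.06. The average log2 effect was 0.04 (SE 0.32, limma adjusted p = 0.950).

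The corepressor Nab1 was represented by a pair of probes that differed in brightness. Probe PH_mM_0013263 was found on all 10 arrays. Its normalized intensity in TAB was 1413, 1025, 1288, 1128 and 1078. The sham values were 796, 549, 851, 1068 and 867. TAB was above the sham sample of the same day on 5 of 5 days, and the groups overlapped only in that the sham sample of day 14 exceeded the TAB sample of day 5.

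By this Nab1 probe the log2 ratio was 0.83, 0.90, 0.60, 0.08 and 0.31. Its average log2 effect was 0.54 (SE 0.15), just outside the threshold when every kept probe was tested (limma adjusted p = 0.059). Among genes restricted to probes found on all 10 arrays the log2 effect was 0.55 and passed (limma adjusted p = 0.019). The other probe, PH_mM_0004770, had the larger summed ratios and so stood for Nab1 in the fit over genes. It lay between 13.4 and 38.0, was found only in the TAB sample of day 14, and gave an average log2 effect of 0.48 (SE 0.29, limma adjusted p = 0.297). Nab1 was called on no day by either probe.

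The single promoter window of Nab1 holds the EGR binding site GCGTGGGCG at 2 places, 1 on each strand, and 0.612% of all windows hold at least 1 and 0.0213% at least 2. It is shown because EGR proteins and NAB1 form 1 circuit. The capitals mark the sites, 141 and 109 bases before the start. A match of letters is no evidence that a factor was bound there.
Nab1 (chr1:52500540-52500599, minus strand): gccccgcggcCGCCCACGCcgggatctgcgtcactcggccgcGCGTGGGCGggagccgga

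Nab2, the EGR-inducible corepressor, was dim. Its normalized intensity in TAB was 42.7, 63.3, 49.5, 40.0 and 40.2. In sham it was 33.0, 36.6, 24.9, 47.4 and 41.9, with the spot of day 7 not found. The log2 ratios were positive on days 3, 5 and 7 (0.37, 0.79 and 0.99) and negative on days 14 and 28 (-0.25 and -0.06), and no day was called. The early mean log2 ratio exceeded the later one by 0.87 (SE 0.26, limma adjusted p = 0.412), and the average log2 effect was 0.37 (SE 0.21, limma adjusted p = 0.262). The other Nab2 probe was found on no array and was removed.

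Nr4a1, the orphan receptor also known as Nur77 and the NR4A member best known for acute induction, was brighter in sham on the later days. In TAB its normalized intensity was 681, 528, 514, 546 and 332. The sham values were 511, 412, 721, 2390 and 873. The highest value was again the sham sample of day 14, 2.74 times the next sham sample, and the lowest was the TAB sample of day 28. TAB spanned 2.05-fold and sham 5.79-fold.

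The log2 ratio for Nr4a1 was 0.42, 0.36, -0.49, -2.13 and -1.39. It was called lower in TAB on days 14 and 28, 4.37-fold and 2.63-fold. The day 28 call lay at the edge of its threshold of 1.38, and with median scaling in place of quantile normalization the log2 ratio of -1.32 was not called. Against the median of the other 4 sham samples the log2 ratios of days 14 and 28 were -0.15 and -0.87, and neither was called. Against the median of all 5 sham samples they were -0.40 and -1.12, and day 28 was called, as was Egr1 on that day (-1.07). The average log2 effect was -0.65 (SE 0.41, limma adjusted p = 0.306), and -0.28 without the samples of day 14. The early mean log2 ratio of 0.10 and the later mean of -1.76 differed by 1.86 (SE 0.40), which did not pass (limma adjusted p = 0.393). The difference was 1.51 without the samples of day 14, and 1.13 without the block and without the sham sample of that day.

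**Figure D2:**
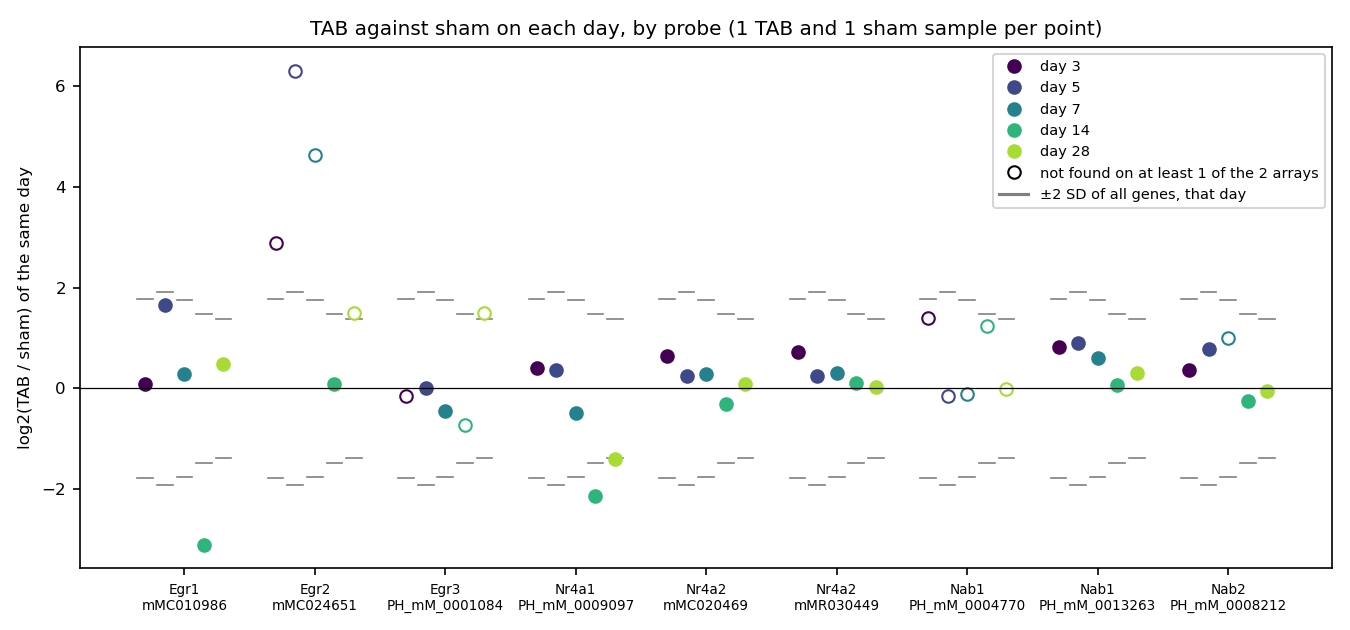
The log2 ratio of TAB over sham (vertical axis) for each kept member probe on days 3 to 28, with 1 TAB and 1 sham sample per point, open points where the spot was missing on at least 1 array, and grey bars at 2 SDs of all genes on that day. Egr2 lies above its bars on days 3, 5 and 7, and Egr1 and Nr4a1 lie below theirs on day 14 at -3.10 and -2.13.

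The 250 bases before the Nr4a1 start hold 4 cyclic AMP response element cores (TGACG on either strand), marked by capitals. Such a core occurs in 20.8% of all windows, and at least 4 in 0.231%. Nr4a2 and Nr4a3 also hold 4 each, the Egr2 windows together hold 2 and Nab1 holds 1, so the promoters of the 3 NR4A genes are alike in this count. The stretch is shown because NR4A genes are known targets of cyclic AMP signalling. None of the member windows searched, which include none of Egr1 or Egr3, holds the NR4A monomer site AAAGGTCA, which 1.51% of all windows do.
Nr4a1 (chr15:101266596-101266845, plus strand): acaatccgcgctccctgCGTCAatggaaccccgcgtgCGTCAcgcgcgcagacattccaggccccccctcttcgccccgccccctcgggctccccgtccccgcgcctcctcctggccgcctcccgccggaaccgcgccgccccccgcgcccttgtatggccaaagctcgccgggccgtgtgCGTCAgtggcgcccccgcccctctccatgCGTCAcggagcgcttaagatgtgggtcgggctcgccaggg

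Nr4a2, or Nurr1, known mainly from dopaminergic neurons, was dim and steady, and its 2 probes were found on all 10 arrays. By probe mMC020469 its normalized intensity in TAB was 76.9, 55.6, 70.4, 66.9 and 56.9. In sham it was 48.8, 46.5, 57.5, 83.2 and 53.8. The highest value was once more the sham sample of day 14. The average log2 effect was 0.19 (SE 0.16, limma adjusted p = 0.421). The other probe, mMR030449, ranged from 45.6 to 75.3, was higher in TAB on 5 of 5 days and gave 0.29 (SE 0.13, adjusted p = 0.177). Neither probe was called on any day. Nr4a3, or Nor1, was below detection as stated above, and nothing can be said of its change.

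Across the 7 genes and 5 days, 8 of 35 gene-days were called, 5 higher and 3 lower in TAB. The spot was found on both arrays for 3 of the 8, namely Egr1 on day 14 and Nr4a1 on days 14 and 28, and all of these were lower in TAB. For 4 it was found in TAB only, and for 1 on neither array. By day, 1 of 7 genes was called on each of days 3, 5 and 7, 2 on day 14 and 3 on day 28, against 5.21%, 5.52%, 5.66%, 5.67% and 5.88% of all genes. None of the 7 genes passed the average effect at an adjusted p of 0.05, which 17.1% of all genes did (2749 of 16113), and 1 of them, Egr2, had an unadjusted p below 0.05, as did 5745 of all genes. The early against late difference passed for no member and for 0.0% of all genes by limma, with an unadjusted p below 0.05 for Egr2, Nr4a1 and Nab2 and for 1766 of all genes.

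The same 2 SD rule was also applied between sham samples of different days (10 pairs), where neither side was banded. It called between 5.54% and 6.13% of all genes in a pair. Egr1 was called in 8 of the 10 pairs, including all 4 that held the day 14 sample. Nr4a1 was called in 4 pairs, all 4 with day 14. Egr2 was called in 8 pairs, again with all 4 of day 14, but only its day 14 spot was found in sham, so the size of its sham differences is not given. Egr3 was called in 2 pairs without day 14, and Nr4a2, Nab1 and Nab2 in none. The differences of Egr1 and Nr4a1 between sham samples reached 4.01 and 2.54 on the log2 scale with the day 14 sample, and 1.79 and 1.08 without it.

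**Figure D3:**
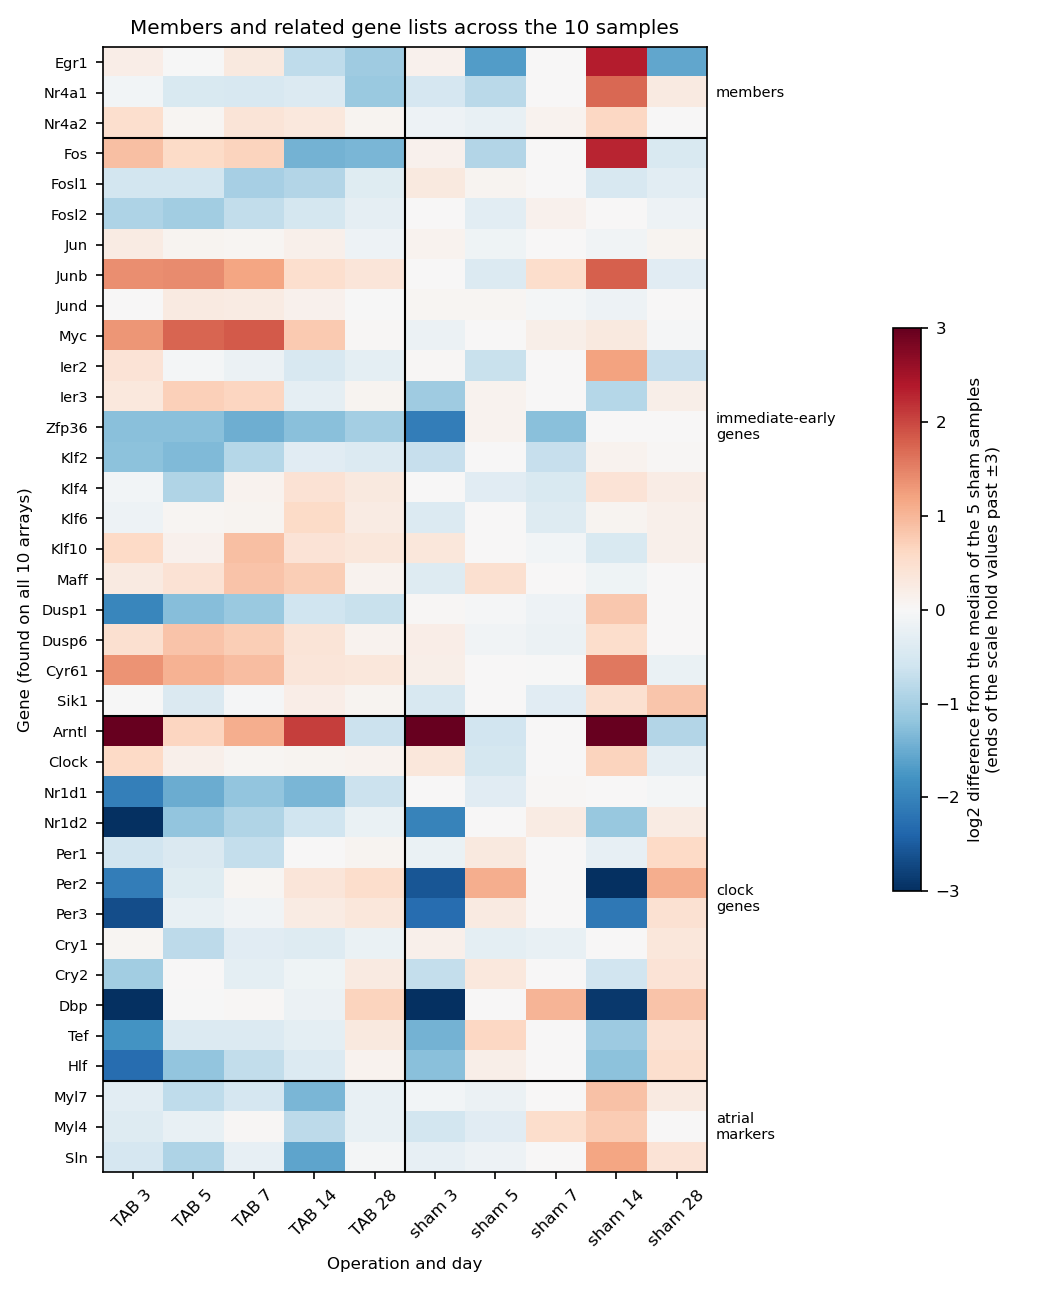
Log2 difference of each sample from the median of the 5 sham samples for members and listed genes found on all 10 arrays, with samples along the horizontal axis, genes along the vertical axis and colour clipped at 3. Egr1, Nr4a1, Fos, Junb, Ier2 and Cyr61 are red in the sham sample of day 14, and the clock gene Dbp is blue in the TAB sample of day 3 and the sham samples of days 3 and 14.

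The sham sample of day 14 was high in other immediate-early genes as well. Fos, the AP-1 subunit induced together with Egr1 by many stimuli, had 447, 354, 377, 88.9 and 92.2 in TAB. In sham it had 261, 129, 238, 1157 and 174. Of the 19 listed immediate-early genes found on all arrays, 4 were above 1 on the log2 scale over the sham median in the sham sample of day 14 (Fos, Junb, Ier2 and Cyr61, of which the last 3 are named because of these values), and none in any other sham sample. Over all 10535 genes found on all arrays, 28 were, which is 0.266%. Day 14 was the highest sham sample for 9 of these 19 genes, and for 22.97% of all genes.

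Other values of that array moved as well. The atrial myosin light chain Myl7 was highest there among sham samples, at 3862 against 1863 to 2524, and Sln, an atrial calcium pump regulator, was at 1761 against 657 to 1045. All 3 atrial markers found on every array were highest in sham on day 14, and the summed level of the 4 atrial markers was 9991 there against 4412 to 6644 in the other sham samples. In TAB on day 14 Myl7 (818), Myl4 (1477) and Sln (260.1) were at their lowest among the 10 samples, and the summed level was 2565 against 3854 to 4771 in the other TAB samples. The clock output gene Dbp was at 258 and 385 in the sham samples of days 3 and 14 and at 270 in TAB on day 3, against 2567 to 5863 in the other 7 samples. Arntl, which encodes the clock activator BMAL1, was at 934 and 1012 in the same sham samples and at 866 in the same TAB sample, against 41.0 to 315 elsewhere. Nr1d1, which encodes the clock repressor REV-ERB alpha, was the 1 clock gene of 13 that passed the average test (log2 effect -1.28, SE 0.21, limma adjusted p = 0.022). So the TAB and sham samples of day 14 differed in Dbp and Arntl, while those of day 3 did not. Egr1 was at 2242 and 10481 in the sham samples of days 3 and 14, and at 2386 and 1222 in the TAB samples of those days. The part of atrial tissue or of time of day in the Egr1 and Nr4a1 values was not tested.

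Of the 26 listed immediate-early genes, 5 of which were found on no array, none was higher and 2 were lower in TAB on average over all 5 days, against 1481 higher and 1268 lower of all 16113 genes. Their median log2 ratio was 0.31, 0.17, 0.42, -0.35 and -0.05, where the median of all genes stayed between -0.06 and 0.00. The lower ones were Dusp1, a phosphatase that inactivates MAP kinases (log2 effect -1.25, SE 0.20, limma adjusted p = 0.021), and the AP-1 subunit Fosl2 (-0.63, SE 0.15, limma adjusted p = 0.041). Myc, a growth-promoting transcription factor, had 93.2, 126, 133, 64.7 and 38.0 in TAB on days 3 to 28 and 33.0 to 45.6 in sham. Its average log2 effect of 1.09 (SE 0.29) lay at the threshold (limma adjusted p = 0.051). Jun differed little (log2 effect 0.09, SE 0.11, limma adjusted p = 0.609).

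Among the relatives, Egr4, the remaining EGR family gene, was found on all arrays at 31.6 to 61.1 and gave a log2 effect of 0.27 (SE 0.20, limma adjusted p = 0.379). The RXR receptors, with which NR4A1 and NR4A2 can pair, were lower in TAB for 2 of 3 genes. Rxra had 349, 362, 422, 446 and 584 in TAB on days 3 to 28 and 606 to 686 in sham. All TAB samples were below all sham samples, and the log2 effect was -0.61 (SE 0.14, limma adjusted p = 0.038). Rxrg had 450 to 719 in TAB and 791 to 1066 in sham, again without overlap, and gave -0.78 (SE 0.17, limma adjusted p = 0.032). How many of all genes separated in this way was not counted. By the average test, 1268 of all 16113 genes were lower in TAB. Rxrb did not pass.

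Of the 9 upstream regulators kept, factors through which growth and cyclic AMP signals are known to reach immediate-early genes, none passed in either direction. Elk1, Elk4 and Creb1 were found on no array and Mkl1 on 1, so nothing can be said of their change. Srf, whose product is known to bind CArG boxes, had 1277 to 1571 in TAB and 1041 to 1826 in sham (log2 effect -0.03, SE 0.17, limma adjusted p = 0.915). Of 7 genes described as EGR1 targets, 1 was higher and 1 lower in TAB. Fn1, which encodes fibronectin, had 1025, 1995, 1666, 735 and 329 in TAB on days 3 to 28 against 126 to 159 in sham, and gave a log2 effect of 2.80 (SE 0.39, limma adjusted p = 0.017). F3, tissue factor, fell by 0.80 on the log2 scale (SE 0.11, limma adjusted p = 0.015). Pdgfa, Pdgfb, Tgfb1 and Icam1 did not pass. Fgf2 did not pass either, but its spot was found on 1 array only, so nothing can be said of its change.

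**Figure D4:**
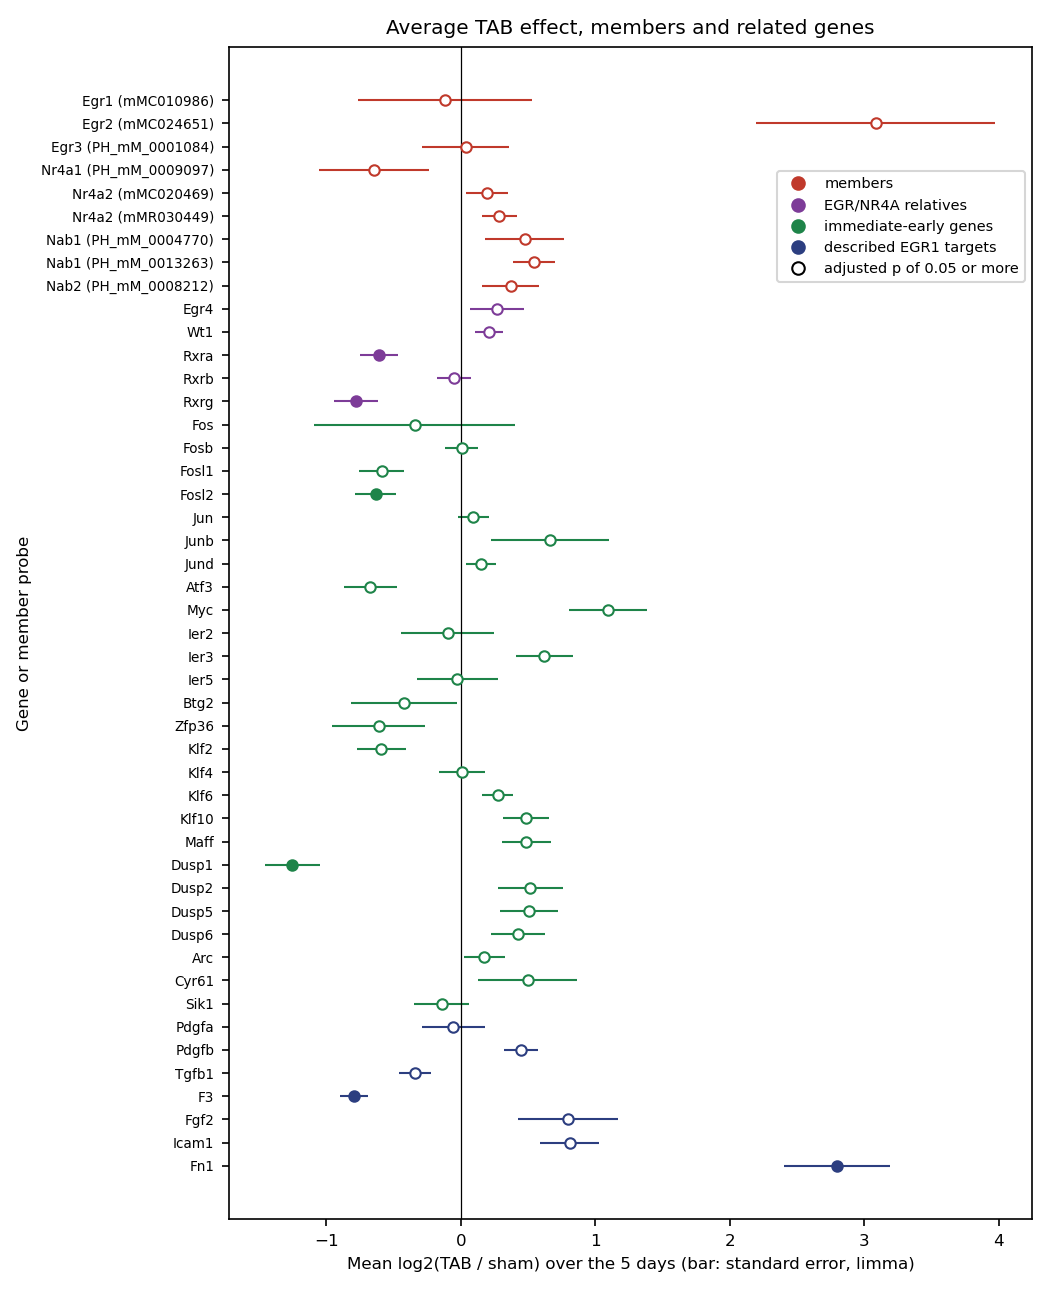
Average log2 ratio of TAB over sham over the 5 days (horizontal axis, bar for the standard error by limma) for the member probes and 3 related gene lists, with filled points for an adjusted p below 0.05. Egr2 has the highest value of the members at 3.09 with an open point, and Rxra, Rxrg, Fosl2, Dusp1, F3 and Fn1 are filled.

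Some markers of other cells also differed between TAB and sham, not all of them over the same days as Egr2. The summed level of the 10 leukocyte markers kept was 5243, 6092, 5880, 3271 and 2848 in TAB on days 3, 5, 7, 14 and 28, against 2043 to 2579 in sham, and 7 of the 10 were higher and 1, Cd3e, lower on average in TAB. The 7 include S100a8, whose spot was found on no array. Cd68, a macrophage marker, had 1701, 2093, 2099, 598 and 548 in TAB and 252 to 355 in sham. The summed level of the 6 measured fibroblast markers was 38122, 44865, 47071, 44142 and 29410 in TAB and 19819 to 23136 in sham. It was still high in TAB on day 14, where Egr2 was lower than on the early days. Among the 6, 4 were higher in TAB, namely Col1a2, Col3a1, Lum and Postn. No endothelial marker passed. Of the 4 measured smooth muscle and pericyte markers 1 was higher, Tagln, an actin-binding protein of smooth muscle, with 66.5, 73.1, 58.9, 14.4 and 20.7 in TAB and 3.62 to 10.99 in sham, where its spot was found on no array (log2 effect 2.69, SE 0.57, limma adjusted p = 0.032). That fit includes intensities of spots that were not found, so its size is not exact. The summed level of these 4 was 1725 to 2325 in TAB and 1621 to 2478 in sham. In bulk ventricle, more cells of a type and more RNA per cell cannot be told apart, and the part of these cells in the Egr2 values was not tested.

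For the members found on all 10 arrays, the genes with the most similar profile over the 10 samples were taken from the 10535 genes so found, as a description in which all points share the arrays and their normalization. Egr1 was most like Ier2 (r = 0.95), an immediate-early gene, then Snapc1 (0.93) and Bet1 (0.93). Without the sham sample of day 14, over 9 samples, these values were 0.88, 0.88 and 0.94. Nr4a1 was most like the probe annotated to both Rn28s1 and Rn45s (0.92), then Pdcd7 (0.90) and Mef2c (0.86), which without that sample were 0.72, 0.50 and 0.76. Nr4a2 was most like Usp42 (0.93), Shb (0.93) and Zmynd19 (0.92), and these stayed between 0.90 and 0.94 without that sample.

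The members were less alike once the sham sample of day 14 was left out. Egr1 and Nr4a1 had r = 0.72 over 10 samples and 0.17 over 9. Egr1 and Nr4a2 had 0.71 and 0.51, and Nr4a1 and Nr4a2 had 0.60 and 0.25. Egr1 and Fos had 0.89 and 0.77. The likeness of Egr1 to Nr4a1 across samples thus rested largely on that 1 array, and that of Egr1 to Fos did not.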

How the data were processed

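Cy5-labelled RNA of each sample was hybridized to 1 Mouse Whole Genome OneArray. The authors deposited raw spot intensity after background subtraction, a detection p-value, and a flag of 0 or -50. How the first 2 were computed and what the flag means is not given in the sources used here, and -50 was taken to mark a spot not found. Arrays were scaled to a common median, probes below 1 in any sample were removed (19976 of 26423 kept), and all 10 arrays were brought to 1 distribution by quantile normalization (rank medians) and log2 transformed. Where a gene had several probes, that whose absolute log2 ratios summed highest stood for it, after the study's methods, which favours large ratios. Of all 26423 probes, 3633 had no symbol, and those of them that were kept took part in the normalization but not in the results by gene. The average TAB effect and its early against late difference were tested by limma 3.58.1 (R 4.3.3, two-sided, Benjamini-Hochberg over 16113 genes) with day as a block, and this code was checked on simulated data. Days stand in for replicates, so the spread holds time, mouse and array differences together, and with so few arrays the precision is limited. Genes named are the members, genes of the lists of relatives, immediate-early genes, regulators, targets and clock genes called on 3 or more days or past the average test, Fos, Jun, Myc, Srf and Egr4, and the 3 genes most correlated with each member. Rxrb and the EGR1 targets that did not pass are named as well. So are Elk1, Elk4, Creb1 and Mkl1, which were found on 1 array or none. Cell markers are named as examples, and Dbp, Arntl, Myl7, Myl4, Sln and Tagln were picked after their values were seen. The members and gene lists were chosen with earlier results of these data known. 1 gene of the list of EGR1 targets is not reported here. Figures and tables were made with Python 3.11.15, pandas 2.3.3, numpy 2.4.6 and matplotlib 3.10.9. Promoter sequences are from RefSeq on GRCm38.p6. In the search, 6 of the 8 members had windows, with none for Egr1 and Egr3, and 1 chromosome was left out of it.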

Additional observations from a re-analysis of the deposited data

Results flagged for a closer look

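The sham sample of day 14 lay far from the other 4 sham samples for 3 members. Egr1 had a normalized intensity of 10481, with a gap to the next sham sample that made up 0.838 of the whole sham range. Egr2 had 53.4 and a gap of 0.734 of the range, with the spot found in no other sham sample. Nr4a1 had 2390 and a gap of 0.767. On the log2 scale the gaps were 0.554, 0.361 and 0.573 of the range for Egr1, Egr2 and Nr4a1, and none lay beyond the limit. Chance places about 1 in 20 groups of 5 beyond the limit of 0.71 used here, and the 3 values come from 1 array, so they are not 3 separate observations. No TAB sample of a member lay beyond this limit on the intensity scale.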

How the results depend on the processing

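Egr2, Egr3 and Nab2 were absent from the fit on probes found on all 10 arrays. In the other alternatives, and for the 4 remaining members in that one too, no member passed the early against late test, and the average log2 effects of Egr2, Nr4a1, Nr4a2 and Nab1 kept their signs. The average TAB effect called 4469 genes with 50 added before log2, 677 with probes below 1 set to 1, 4194 with trend and robust estimation, and 25 to 2706 when the samples of 1 day were left out, against 2749. The early against late difference called 10 genes with 50 added, 18 with only probes found on all 10 arrays, 34 with trend and robust estimation, 5 without the replicate block and 168 without block and without the sham sample of day 14, against 0. That last fit and the 2 other sham references were chosen after seeing the data.

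Same-day TAB and sham samples deviated from their group means with correlations across genes of -0.0165 to 0.113, so the day numbers need not pair the samples. Without the replicate block Egr2 passed (log2 effect 3.086), as it did with 50 added (1.121) and without block and the sham sample of day 14 (3.721). No other call of a member changed without the block. Leaving out days, Egr1 ranged from -0.561 to 0.624, the upper end without day 14, and it was 0.507 without block and that sham sample. Against the 4 other sham samples its day 14 log2 ratio was 0.018. Member calls over the days, 8 for 7 genes, numbered 4 for the 4 genes with probes found on all arrays (Egr1 gained day 5) and 5 against those 4 sham samples, all 5 of them Egr2.

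Signs turned for Egr3 and Nab2 and for the early minus late value of Nab1. Egr3 had an average log2 effect of -0.078 with median scaling, -0.005 with 50 added and -0.351 to 0.218 with a day left out, and its early minus late value ran from -1.639 to 0.595. Nab2 had -0.676 with probes below 1 set to 1 (early minus late -0.334) and -0.281 to 0.492 with a day left out, the negative value being that without day 3, and in both negative cases its probe found on no array stood for it. Nab1 early minus late was 0.661 with median scaling, 0.581 within each operation, 0.548 with 50 added, 0.580 with probes found on all arrays, 0.167 with the mean of its probes, 0.579 with the brightest and -0.899 to 0.553 with a day left out, in place of -0.245, where the brighter probe stood for Nab1 in the fits without day 3 or day 14 and in the other settings alone or in the mean, and the sign also turned with the dim probe without day 5 (0.036). Nab1 passed the average test under 4 of these, at 0.516 to 0.659. Spots not found limit Egr2, Egr3, Nab2 and all of Nr4a3. With a day left out, the only member call that changed on a remaining day was that of Nr4a1 on day 28, lost without day 3 (-1.391) and without day 7 (-1.394). It was also lost within each operation (-1.302) and with probes below 1 set to 1 (-1.394), where Nab2 on day 3 was called (-2.388). The day 28 call of Egr2 was lost with 50 added (0.243), with probes below 1 set to 1 (1.440) and against all 5 sham samples (0.941).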
